A study of Mus musculus with 8 samples.

Results

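Genes that drive or restrain the cell cycle were followed in mouse liver as a set of 8: the D cyclin genes Ccnd1, Ccnd2 and Ccnd3, the kinase gene Cdk4, the cyclin E1 gene Ccne1, the cyclin G2 gene Ccng2, and the inhibitor genes Cdkn1b and Cdkn2c. They were found by symbol in the platform annotation of the array, where they had 9 transcript clusters (the array's unit for a gene), 2 of them for Cdkn1b, among 19938 genes with a cluster that names no other gene. The set was chosen by the measured values of Ccnd1 in one comparison, its lower signal with arsenite on the high-fat diet. Every value of the 8 genes from that comparison, HFD+As against HFD, therefore describes the choice and carries no test, and the same holds for Ccnd1 in any comparison with HFD+As or HFD. The mean signal over all arrays lay above the filter on low values for 8 of 8 genes.

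Liver RNA came from male C57Bl/6J mice in 4 groups of 10. The LFD group ate a low-fat diet with 13% of calories from fat and drank deionized water, and the LFD+As group ate the same diet and drank water in which sodium arsenite supplied 3 mg per litre of inorganic arsenic. The HFD group ate a high-fat diet with 42% of calories from fat and drank deionized water, and the HFD+As group combined that diet with the arsenite water. The protocols give 10 weeks of exposure and the source label 90 days. RNA of 5 mice was pooled for each array, so each group has 2 arrays, called replicate 1 and replicate 2. Every p-value thus rests on the spread between pools, not between mice. The limma fit draws each gene's spread towards that of all genes tested.

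A D-type cyclin binds CDK4 or CDK6, and the complex phosphorylates the retinoblastoma protein, which releases E2F factors and lets a cell enter S phase; cyclin E with CDK2 carries this further. Inhibitors of the INK4 family, such as p18 (Cdkn2c), bind CDK4 and CDK6 directly, and p27 (Cdkn1b) binds cyclin-CDK complexes. Most hepatocytes of an adult liver are quiescent, and a rise of cyclin D1 marks their re-entry into the cycle during regeneration. Cyclin G2 is an atypical cyclin that is linked to cell cycle arrest, and Ccng2 and Cdkn1b are both known targets of FoxO transcription factors.

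Promoter sequences were at hand for 6 of the 8 genes (RefSeq, GRCm38.p6) and not for Ccnd1 and Ccnd2. The windows of Ccng2 and Cdkn1b are shown because both genes are known FoxO targets and Ccng2 is one of the genes that stood lower in HFD+As; that of Cdk4, the kinase partner of the D cyclins, is shown for the 4 E-boxes in it. Each window runs 5′ to 3′ on the strand of the gene from 250 bases before the start site to 50 bases after it. Ccng2 is at chr5:93267323-93267622 on the + strand, Cdkn1b at chr6:134920151-134920450 on the + strand and Cdk4 at chr10:127063285-127063584 on the + strand. Capitals mark matches to the motifs named in the next paragraph.
Ccng2: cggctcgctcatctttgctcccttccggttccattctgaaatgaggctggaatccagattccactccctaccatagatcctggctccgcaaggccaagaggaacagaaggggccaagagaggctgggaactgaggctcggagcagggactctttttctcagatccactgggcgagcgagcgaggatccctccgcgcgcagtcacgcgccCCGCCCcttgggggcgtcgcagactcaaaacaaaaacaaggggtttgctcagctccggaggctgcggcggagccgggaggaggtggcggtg
Cdkn1b: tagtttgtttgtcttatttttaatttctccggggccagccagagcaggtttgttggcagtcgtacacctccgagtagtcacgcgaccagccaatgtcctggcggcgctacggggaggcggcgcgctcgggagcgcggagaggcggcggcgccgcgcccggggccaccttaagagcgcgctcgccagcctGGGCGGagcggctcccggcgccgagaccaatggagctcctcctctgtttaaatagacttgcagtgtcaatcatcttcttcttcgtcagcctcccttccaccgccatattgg
Cdk4: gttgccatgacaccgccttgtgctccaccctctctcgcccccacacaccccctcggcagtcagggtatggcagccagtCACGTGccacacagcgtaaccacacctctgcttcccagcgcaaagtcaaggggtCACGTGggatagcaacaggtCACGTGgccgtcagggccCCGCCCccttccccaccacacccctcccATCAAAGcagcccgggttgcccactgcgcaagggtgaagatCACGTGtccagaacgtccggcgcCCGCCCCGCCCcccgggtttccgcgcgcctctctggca

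The motifs searched on both strands were GTAAACA (FoxO), TGACTCA (AP-1), TGACGTCA (cAMP response element), CTTTGAT (TCF/LEF), TTTGGCGC, TTTCGCGC and TTTCCCGC (E2F), GGGCGG (Sp1) and CACGTG (E-box). The Ccng2 and Cdkn1b windows held 1 Sp1 match each and 0 matches to GTAAACA, a word found in 3.65% of the 32851 windows of this length in the table. FoxO sites were searched by this exact word alone. Its absence therefore does not show that a window lacks FoxO sites of another form. The Cdk4 window held 4 matches to CACGTG, which 7.15% of all windows have at least once, 1 to CTTTGAT (3.73% of windows) and 3 Sp1 matches, of which the last pair overlap. Sp1 matches occur in 35.7% of all windows. Of the other members, the Ccne1 window held 4 Sp1 matches, the 2 windows of Ccnd3 held 2 each, with 1 match to GTAAACA in the first of them, and the 2 windows of Cdkn2c held 1 E-box and 4 Sp1 matches. Matches to the AP-1, cAMP response element and E2F words were absent from these windows (0 each), and are found in 5.20%, 1.79% and 1.84% of all windows.

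Across the whole table, arrays correlated at r between 0.974 and 0.991 over transcript clusters, which are not independent replicates. The mean log2 signal of 7 hepatocyte marker genes lay at 13.66 and 13.67 in LFD, between 13.65 and 13.68 in LFD+As, at 13.49 and 13.65 in HFD, and at 13.44 and 13.52 in HFD+As. Deviations of an array from the mean of all arrays were ranked against the length of each gene's locus (its span, first to last base, introns included). This gave rank correlations of -0.454 and -0.293 for the HFD+As arrays and between -0.136 and 0.346 for the other 6, given as a description. Differences are log2 differences between group means from limma, fitted to all 8 arrays over 11963 genes, with a standard error (SE) and p-values adjusted by Benjamini-Hochberg over all of these genes. A gene was called at an adjusted p under 0.05. Removing the span trend moved the median difference of all genes from -0.13 to -0.00033 in HFD+As against HFD and from -0.095 to 0.0032 in HFD+As against LFD. The removal also takes out each array's overall shift, so these later medians are set by the method and do not measure span.

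Ccnd1, the gene of cyclin D1, had its highest signals in HFD and its lowest in HFD+As. The log2 signal was 9.96 and 9.83 in the LFD pools and 9.55 and 9.84 in the LFD+As pools. It was 10.11 and 10.37 in the HFD pools and 9.28 and 9.03 in the HFD+As pools. Both HFD arrays lay above the other 6 arrays and both HFD+As arrays lay below them, while LFD and LFD+As overlapped. As group means with the SD of 2 pools, Ccnd1 stood at 10.24 ± 0.18 in HFD, 9.89 ± 0.092 in LFD, 9.69 ± 0.21 in LFD+As and 9.15 ± 0.18 in HFD+As (n = 2 each).

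**Figure D1:**
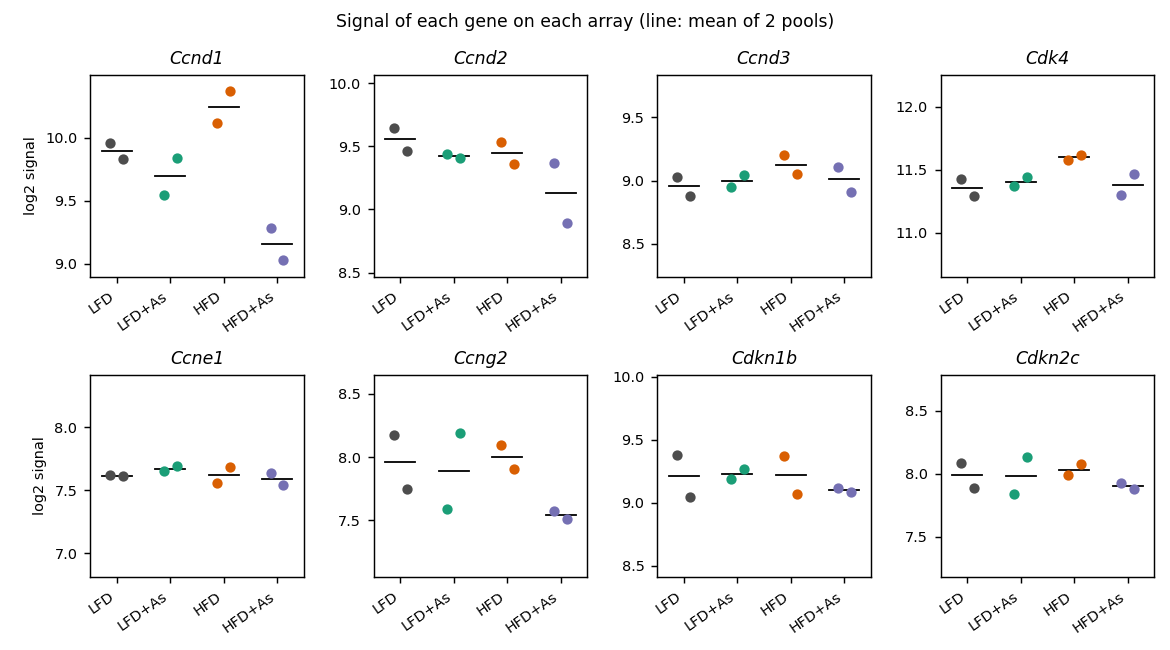
Log2 signal (y axis) of the 8 genes on each array by group (x axis); points are pools of 5 mice and lines are means of 2 pools. The HFD+As points of Ccnd1, at 9.28 and 9.03, lie below the other 6 arrays, and the HFD points, at 10.11 and 10.37, above them.

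With arsenite on the high-fat diet, the comparison by which Ccnd1 was chosen, its difference was -1.09 (SE 0.14), 2.13-fold lower, and 11 of the 11963 genes had a lower value. Against LFD, HFD+As stood at -0.74 (SE 0.14), and against LFD+As at -0.54 (SE 0.14). With the span trend removed these values were -1.01, -0.70 and -0.51. With any 1 array left out, HFD+As against HFD lay between -1.22 and -0.96. In a bulk sample, fewer cells of a type and less RNA per cell cannot be told apart.

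In the arrays that share nothing with that comparison, arsenite on the low-fat diet left Ccnd1 at -0.20 (SE 0.14, adjusted p = 0.9998, 95% interval -0.51 to 0.11, n = 2 pools per group). Without LFD+As replicate 1 this value was -0.055. The high-fat diet without arsenite stood at 0.35 (SE 0.14) against LFD, with both HFD arrays above both LFD arrays. The HFD arrays are part of the comparison by which the gene was chosen, so this value is a description. The interaction, the change with arsenite under HFD less the change under LFD, was -0.89 (SE 0.20) for Ccnd1 and is given as a description. Over all genes the limma test of the interaction called 0 of 11963 (0.0%), with 1659 (13.9%) at an unadjusted p under 0.05.

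Ccnd2, which encodes cyclin D2, was lowest in a single HFD+As pool. Its log2 signal read 9.64 and 9.47 for the LFD pools, 9.44 and 9.40 for LFD+As, 9.53 and 9.36 for HFD, and 9.37 and 8.89 for HFD+As. HFD+As did not overlap LFD or LFD+As but overlapped HFD. Against LFD the difference was -0.42 (SE 0.15, adjusted p = 0.0714, unadjusted p = 0.0143) and was not called. Without HFD+As replicate 1 it was -0.66 and was called (adjusted p = 0.0474), and without HFD+As replicate 2 it was -0.18 (adjusted p = 0.446). HFD+As against HFD was -0.31 (SE 0.15), and -0.15 with the span trend removed.

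Ccnd3, the gene of cyclin D3, varied little, from 8.88 to 9.20 over the 8 arrays, with group means of 8.95 ± 0.11 in LFD, 8.997 ± 0.065 in LFD+As, 9.13 ± 0.11 in HFD and 9.01 ± 0.14 in HFD+As (SD, n = 2 each). Its differences from LFD were 0.04, 0.17 and 0.06 in LFD+As, HFD and HFD+As (SE 0.12 each, adjusted p of 0.9998, 0.692 and 0.806). Removing the span trend put HFD+As against LFD at 0.30, which was not called (adjusted p = 0.106). HFD+As against HFD was -0.12 (SE 0.12), and 0.10 with the span trend removed. Ccnd3 has the longest span of the 8 genes, 94639 bases (GRCm38.p6). In HFD+As against LFD, Ccnd1, Ccnd2 and Ccnd3 stood at -0.74, -0.42 and 0.06, and at -0.70, -0.29 and 0.30 with the span trend removed.

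Cdk4, the gene of a kinase partner of the D cyclins, was highest in HFD, at 11.58 and 11.62, against 11.43 and 11.29 for LFD, 11.37 and 11.45 for LFD+As and 11.30 and 11.47 for HFD+As. The HFD arrays lay above the other 6, as they did for Ccnd1. The difference of HFD from LFD was 0.24 (SE 0.12, adjusted p = 0.517, 95% interval -0.01 to 0.49) and was not called. HFD+As stood at 0.02 (SE 0.12, adjusted p = 0.918) against LFD and at -0.21 (SE 0.12) against HFD. LFD+As against LFD was 0.05 (SE 0.12, adjusted p = 0.9998).

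Ccne1, which encodes the CDK2 partner cyclin E1, had the narrowest range of the 8 genes, from 7.54 to 7.69. Its 4 group means lay between 7.59 and 7.67, and only 1.46% of the genes tested had a narrower range. HFD+As against LFD was -0.03 (SE 0.11, 95% interval -0.27 to 0.22, adjusted p = 0.907). The difference of HFD from LFD was 0.0065, and that of LFD+As from LFD was 0.05 (SE 0.11, adjusted p of 0.991 and 0.9998).

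Among the genes linked to arrest, Ccng2 stood lower in HFD+As and the others less so. The log2 signals of Ccng2 were 8.18 and 7.75 for LFD, 7.59 and 8.19 for LFD+As, 8.10 and 7.90 for HFD, and 7.57 and 7.51 for HFD+As. The HFD+As arrays lay below the other 6, but LFD+As replicate 1 was only slightly above them, and the SD of 2 pools was 0.30 in LFD and 0.43 in LFD+As. Against LFD the difference was -0.42 (SE 0.18, adjusted p = 0.137, unadjusted p = 0.0388), which was not called. It was -0.21 without LFD replicate 1 and -0.64 without LFD replicate 2. HFD+As against HFD was -0.46 (SE 0.18), and the differences of LFD+As and HFD from LFD were -0.07 and 0.04 (SE 0.18, adjusted p = 0.9998 and 0.967).

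Cdkn1b, the gene of the CDK inhibitor p27, gave 9.38 and 9.05 for the LFD pools, 9.19 and 9.27 for LFD+As, 9.37 and 9.07 for HFD, and 9.12 and 9.08 for HFD+As. The 4 groups overlapped, except that both HFD+As arrays lay below both LFD+As arrays. The difference of HFD+As from LFD was -0.11 (SE 0.14, adjusted p = 0.643). The second cluster of Cdkn1b, which is dimmer (mean 6.32, below the filter), stood at -0.19 in that comparison and at -0.30 in HFD+As against HFD, where the first stood at -0.12. In LFD+As against LFD the 2 clusters had opposite signs, 0.02 and -0.11.

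Cdkn2c, the gene of the INK4 inhibitor p18, gave 8.09 and 7.88 for LFD, 7.84 and 8.13 for LFD+As, 7.99 and 8.08 for HFD, and 7.93 and 7.88 for HFD+As. Its HFD+As arrays lay below both HFD arrays and overlapped those of LFD. Against LFD, HFD+As stood at -0.08 (SE 0.13, adjusted p = 0.719).

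**Figure D2:**
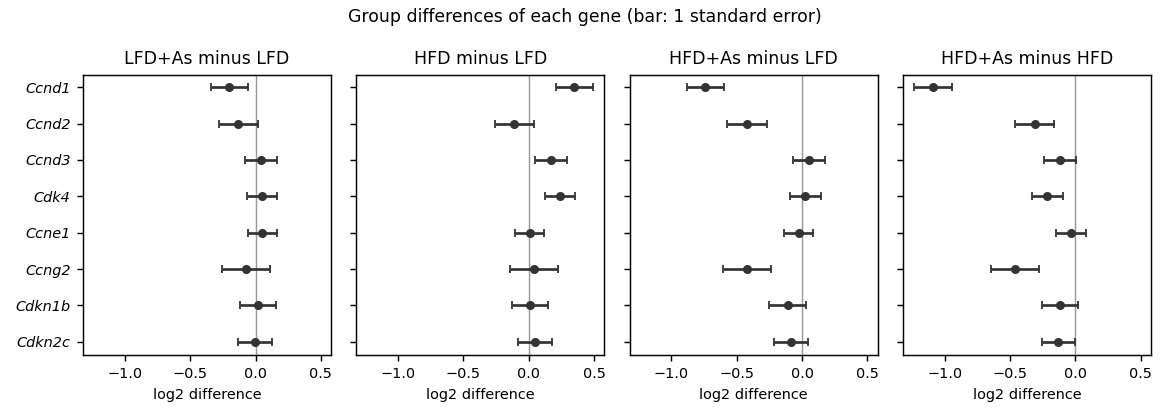
Log2 differences (x axis) of the 8 genes in 4 comparisons; points are differences between means of 2 pools and bars are 1 SE from the limma fit. Ccnd1 stands at -0.20, 0.35, -0.74 and -1.09 from left to right, and Ccnd2 and Ccng2 at -0.42 each in HFD+As minus LFD; the right panel is the comparison by which Ccnd1 was chosen.

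As a set, 0 of 8 genes were called for LFD+As against LFD by limma, where 0.0669% of all genes were, and 0 of 8 had an unadjusted p under 0.05, against 3.35% of all genes. Leaving Ccnd1 aside, 0 of 7 were called for HFD against LFD, where 0.46% of all genes were, and 0 had an unadjusted p under 0.05, against 10.3% of all genes. The HFD arrays lay above those of LFD for 3 of 8 (Ccnd1, Ccnd3 and Cdk4), against 21.7% of all genes. Again without Ccnd1, 0 of 7 were called for HFD+As against LFD, where 16.0% of all genes were, and 2 (Ccnd2 and Ccng2) had an unadjusted p under 0.05, against 30.8% of all genes. Arrays did not overlap and were lower in HFD+As for 3 of 8 against LFD (Ccnd1, Ccnd2 and Ccng2), where this held for 41.4% of all genes. For HFD+As against LFD+As, 0 of 7 were called, where 10.3% of all genes were, and 0 had an unadjusted p under 0.05, against 28.1% of all genes. There 5 of 8 were lower without overlap (Ccnd1, Ccnd2, Ccne1, Ccng2 and Cdkn1b), against 43.8% of all genes. The counts of arrays that did not overlap include Ccnd1, whose HFD and HFD+As values were known when it was chosen. The choice can raise these counts, so they are a description. The 3 comparisons with LFD share its 2 arrays.

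In HFD+As against HFD, 8 of 8 differences were below 0, from -1.09 to -0.03, and 72.3% of all genes were below 0. The median of the 8 was -0.17 and that of all genes -0.13. The arrays of 4 of the 8 genes (Ccnd1, Ccng2, Cdk4 and Cdkn2c) did not overlap and were lower in HFD+As, where this held for 45.8% of all genes; 3.63% of all genes were called. With the span trend removed the median of the 8 was -0.12, and Ccnd3 and Ccne1 stood above 0. The median of all genes was then -0.00033, a value set by the removal itself, so setting these medians side by side tests nothing about the 8. In HFD+As against LFD the median of the 8 was -0.097 and that of all genes -0.095.

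The genes nearest to Ccnd1 in their pattern were found by the root mean square difference between centred log2 signals over the 8 arrays. They were Pgrmc2, which encodes a heme-binding membrane protein, at 0.151, the water channel gene Aqp8 at 0.152, the fatty acid elongase gene Elovl5 at 0.153, the phosphate transporter family gene Slc17a4 at 0.161 and Gask1a at 0.165, while the median of all genes tested was 0.392. In HFD+As against HFD these genes stood at -0.93, -0.87, -1.13, -1.09 and -1.02. Of the other members, Ccng2 was nearest to Ccnd1, at 0.281 and rank 338, and Ccne1 farthest, at 0.395. The genes nearest to Ccng2 were Rasgrp3 (0.0855), Cyp2j9 (0.0877), Pde9a (0.0920), Tgif1 (0.0942) and Zfp953 (0.0947), against a median of 0.253.

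**Figure D3:**
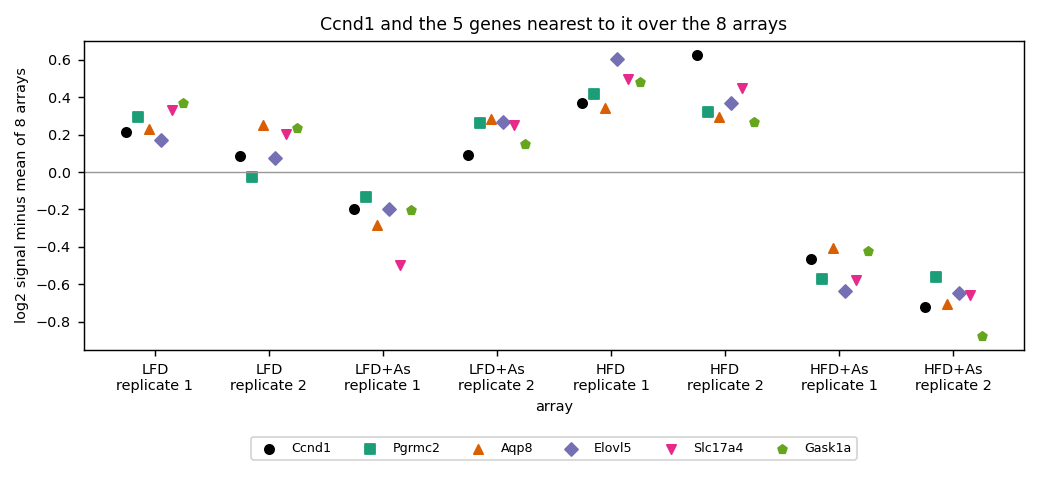
Log2 signal minus the mean of 8 arrays (y axis) on each array (x axis) for Ccnd1 and the 5 genes with the smallest root mean square difference to it; each point is 1 array of 5 pooled mice. All 6 genes lie above their mean on the HFD arrays and below it on the HFD+As arrays, and they were chosen for their likeness to Ccnd1.

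Of 135 other genes of the cell cycle, its control and linked pathways, 108 were tested. In LFD+As and in HFD against LFD, 0 of the 108 were called by limma, where 0.0669% and 0.46% of all genes were. In HFD+As against LFD, 18 were called lower and 1 higher, 17.6% in all. Over all genes 16.0% were called, 12.4% lower and 3.59% higher. In HFD+As against LFD+As, 14 were called lower and 0 higher (13.0%), where 10.3% of all genes were called and 8.43% were called lower. Without HFD+As replicate 1, 1 of the 19 calls against LFD held, without LFD replicate 1, 2 did, without LFD replicate 2, 10 did, and without HFD+As replicate 2, 12 did. With the span trend removed 7 held.

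Cdk6, which encodes the other kinase partner of the D cyclins, fell in HFD+As and was the 1 of these 19 genes whose call against LFD held with any 1 array left out. The pools of LFD read 9.68 and 9.60, those of LFD+As 9.53 and 9.55, those of HFD 9.48 and 9.28, and those of HFD+As 8.67 and 8.80. Both HFD+As arrays lay below the other 6. Against LFD, Cdk6 fell by 0.90, with an SE of 0.12 and an adjusted p of 0.00191 from limma, and with 1 array left out it lay between -0.97 and -0.84. With the span trend removed it was -0.62 and still called (adjusted p = 0.00885). Against HFD, the comparison by which Ccnd1 was chosen, its value was -0.65, and -0.41 with the span trend removed. Of the 11 cyclin-dependent kinase genes tested, 0 were called higher and 1 (Cdk6) lower against LFD. Over all genes, 3.59% were called higher and 12.4% lower.

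Of 13 further cyclin genes tested, 1 was called against LFD, where 16.0% of all genes were. This was Ccni, the gene of cyclin I, which fell by 0.51 (limma adjusted p = 0.0273, and -0.67 to -0.36 with 1 array left out). Ccni was -0.39 and not called once the span trend was removed. Of 12 inhibitors and brakes, 2 were called, where 16.0% of all genes were. The antiproliferative gene Tob1 fell by 0.78 (adjusted p = 0.00571; -0.92 to -0.63 with 1 array left out). It read 11.44 and 11.63 for LFD, 11.17 and 11.31 for LFD+As, 11.23 and 10.97 for HFD, and 10.62 and 10.90 for HFD+As, so that both HFD+As arrays lay below the other 6. Rbl2, which encodes the retinoblastoma-like protein p130, fell by 0.65 (adjusted p = 0.0202; -0.81 to -0.48), and was -0.45 and not called with the span trend removed.

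Of 20 E2F and DNA replication genes, 1 was called, where 16.0% of all genes were. The replicative helicase gene Mcm6 fell by 0.43 (limma adjusted p = 0.0497, and -0.50 to -0.35 with 1 array left out). Mcm6 was -0.29 and not called with the span trend removed. Of 7 mitosis and proliferation markers tested, 0 were called by limma, and the smallest p-values among them were those of the phosphatase gene Cdc25a (-0.26, adjusted p = 0.162) and the kinase gene Aurkb (-0.18, adjusted p = 0.332). The medians were -0.14 for the cyclins, -0.15 for the kinases, -0.17 for the inhibitors, -0.15 for the replication genes and -0.085 for the mitosis markers, beside -0.095 for all genes.

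Upstream of the D cyclins, 2 of 13 genes of their turnover and control were called against LFD (median -0.24). Over all genes, 16.0% were called. Gsk3b, which encodes a kinase that marks cyclin D1 for degradation, fell by 0.66 (adjusted p = 0.0108; -0.85 to -0.46 with 1 array left out). With the span trend removed it was -0.39 and not called. Jun, which encodes a subunit of AP-1, fell by 0.59 (adjusted p = 0.00976; -0.61 to -0.58 with 1 array left out). Jun stood between 8.91 and 9.21 on the other 6 arrays and at 8.52 and 8.55 in HFD+As.

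Of the 14 FoxO-linked genes, 6 were called lower and 1 higher in HFD+As against LFD (median -0.29), where 12.4% and 3.59% of all genes were. In all, 12 of the 14 were below 0, against 66.6% of all genes. The sestrin gene Sesn3 fell by 0.76 (adjusted p = 0.0194; -0.95 to -0.58 with 1 array left out) and the insulin receptor gene Insr fell by 0.70 (adjusted p = 0.00814; -0.86 to -0.55). Insr read 9.80 and 10.11 in HFD+As and between 10.34 and 10.68 on the other 6 arrays. G6pc, the gene of the catalytic subunit of glucose-6-phosphatase, fell by 0.64 (adjusted p = 0.0389; -0.89 to -0.39). Pck1, the gene of a gluconeogenic enzyme, rose by 0.72 (adjusted p = 0.0305; 0.58 to 0.86). Insr was -0.44 and still called with the span trend removed, while Sesn3 (-0.57), G6pc (-0.60) and Pck1 (0.72) were not called.

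Of 12 Wnt and pericentral genes, 4 were called lower in HFD+As against LFD (median -0.33), where 12.4% of all genes were. In all, 10 of the 12 were below 0, against 66.6% of all genes. The ammonium transporter gene Rhbg fell by 0.85 (adjusted p = 0.00655; -1.08 to -0.62 with 1 array left out), and the R-spondin receptor gene Lgr5 fell by 0.71 (adjusted p = 0.00809; -0.83 to -0.58). Znrf3 and Rnf43 encode ubiquitin ligases that restrain Wnt signalling. Znrf3 fell by 0.57 (adjusted p = 0.0152; -0.70 to -0.44) and Rnf43 fell by 0.47 (adjusted p = 0.0220; -0.56 to -0.38), and with the span trend removed they were -0.30 and -0.25 and not called, while Lgr5 was -0.44 and still called. Of 7 p53 targets, 1 was called, where 16.0% of all genes were, and the median of that list was -0.065. The sestrin gene Sesn2 fell by 0.50 (limma adjusted p = 0.0337, and -0.59 to -0.41 with 1 array left out). Sesn2 was -0.41 and not called with the span trend removed.

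**Figure D4:**
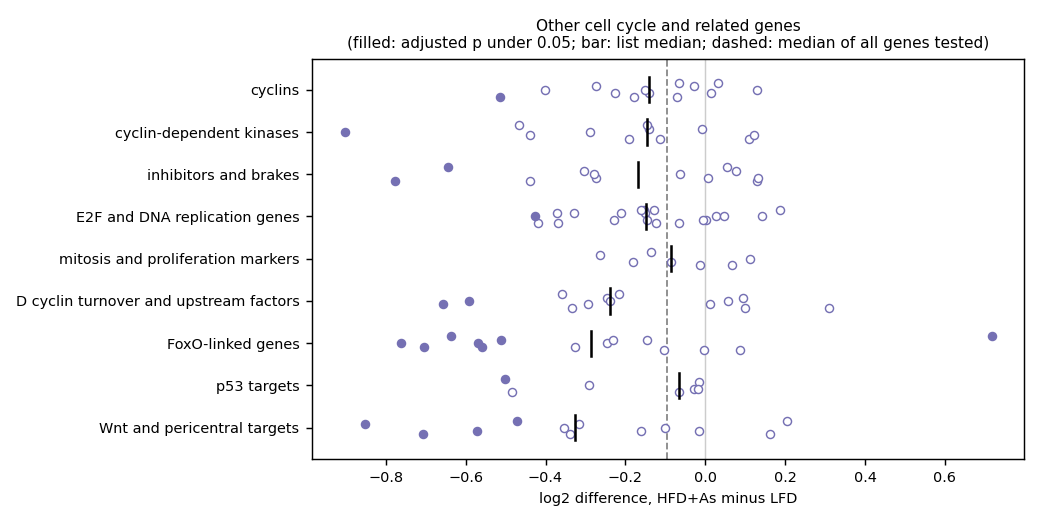
Log2 differences of HFD+As minus LFD (x axis) for genes of 9 lists (y axis); each point is a gene, filled where its adjusted p is under 0.05, bars are list medians and the dashed line is the median of all genes tested. Cdk6 lies at -0.90, and the list medians run from -0.33 (Wnt and pericentral targets) to -0.065 (p53 targets), with that of all genes at -0.095.

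Of the marker lists of other liver cells, those of sinusoidal endothelium and stellate cells had lower means on both HFD+As arrays than on the other 6. The mean log2 signal of 8 sinusoidal endothelial markers was 9.14 on both HFD+As arrays and between 9.31 and 9.73 on the other 6, with 3 of 8 called lower against LFD and 7 of 8 below 0, where 12.4% of all genes were called lower and 66.6% were below 0. For 8 stellate cell markers it was 8.93 and 9.09 in HFD+As and between 9.17 and 9.24 elsewhere. Of these, 1 of 8 was called lower against LFD, near the 12.4% of all genes. The mean of 8 macrophage markers was 9.08 and 9.23 in HFD+As, 9.47 and 9.69 in HFD and between 9.20 and 9.47 in LFD and LFD+As. Here 1 of 8 was called lower against LFD and 1 higher, where 12.4% and 3.59% of all genes were. Against HFD, the macrophage markers had a median of -0.49, with 7 of 8 below 0 and 1 above. The median there was -0.40 for sinusoidal endothelium and -0.22 for stellate cells, with 8 of 8 below 0 in each. Over all genes it was -0.13, with 72.3% below 0. The 7 lymphocyte markers lay between 6.77 and 7.04 on all arrays, the 6 cholangiocyte markers between 6.73 and 6.96 and the 3 erythroid markers between 7.89 and 8.30. The 7 neutrophil markers lay at 6.81 and 6.96 in HFD+As, at 6.67 and 6.83 in HFD and between 6.43 and 6.56 in LFD and LFD+As, so that HFD+As overlapped HFD. Only 2 of the 7 passed the filter on low values. Of these, S100a9 was called higher by limma in HFD+As against LFD (0.81, adjusted p = 0.00555), as were 3.59% of all genes. The other, Csf3r, overlapped, at 7.02 and 6.94 in LFD and 6.96 and 7.11 in HFD+As. Of 7 hepatocyte markers, 6 were below 0 in HFD+As against LFD, beside 66.6% of all genes. Of the 7, 1 (Cps1) was called lower (-0.39, limma adjusted p = 0.0391), beside 12.4% of all genes. The part of these cell types in the values of Ccnd1, Cdk6 and the other genes was not tested.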

How the data were processed

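The deposited table holds log2 signals per transcript cluster of 8 Affymetrix arrays, which the authors made in Affymetrix Expression Console 1.0, a tool named by the submitters' processing notes; the background correction, normalization and genome build are not given in the sources used here. Array medians lay between 7.08 and 7.18, and the log2 values were used as deposited. The table has no detection calls, and the number of arrays limits the precision (median SE of a group difference 0.127).

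Gene names came from the platform annotation, with 1 symbol for 21789 of 35556 clusters and several for 1621. The cluster with the highest mean stood for a gene, and the 60% of genes with the highest means (above 6.975) were tested: 11963 of 19938. Differences were fitted with limma 3.58.1 in R 4.3.3 over 4 group means and 8 arrays (4 residual and 9.32 prior degrees of freedom), after tests on simulated data. Alternatives were no filter, the mean of a gene's clusters, quantile normalization, removal of a lowess trend on span, a replicate block, and leaving out each array. The span came from the RefSeq table of GRCm38.p6.

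All 8 members were fitted in every comparison, and the text gives a part of their differences. Of each pathway list, up to 4 called genes with the largest change, or else up to 2 with the smallest p as values, were named for HFD+As against LFD. The nearest genes were the 5 with the smallest root mean square difference, predicted genes passed over. The members and lists were chosen with earlier results of these data known.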

Additional observations from a re-analysis of the deposited data

Results flagged for a closer look

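The high-fat diet went with opposite shifts of Ccnd1 without and with arsenite. Without arsenite, both HFD arrays lay above both LFD arrays, with a difference of 0.35 log2 units. With arsenite, both HFD+As arrays lay below both LFD+As arrays, with a difference of -0.54. The difference between these shifts is the interaction, -0.89 (SE 0.20). It is given as a description with no p-value, because Ccnd1 was chosen with its HFD and HFD+As values known. Over all genes the limma test of the interaction called 0 of 11963.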

How the results depend on the processing

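With 2 pools per group, the counts of called genes moved with single arrays. LFD+As against LFD gave 8 genes, 1 with no filter, 5 with quantile normalization and 0 to 26 with 1 array left out. HFD against LFD gave 55, 13 with no filter and 0 to 72 with 1 array left out. HFD+As against LFD gave 1909, 1084 with no filter, 1087 with the span trend removed and 206 to 2050 with 1 array left out. HFD+As against HFD gave 434, 29 with no filter, 104 with quantile normalization, 40 with the span trend removed, 230 with the replicate block and 24 to 1121 with 1 array left out. HFD+As against LFD+As gave 1227, 165 with no filter, 62 with the span trend removed and 17 to 1481 with 1 array left out. The interaction gave 0, and 0 to 23 with 1 array left out. Why the counts moved was not tested. The share of calls that were lower went from 77.5% to 50.5% in HFD+As against LFD, from 89.6% to 50.0% against HFD and from 82.2% to 54.8% against LFD+As with the span trend removed, and to 70.3%, 79.8% and 71.7% with quantile normalization. Removal of the span trend also takes out each array's overall shift, which by itself evens out higher and lower calls. The part of span in these shares was therefore not tested.

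Same-numbered replicates are not stated to share anything, and the correlation of their deviations between groups ran from -0.217 to 0.179. With the replicate block, 1 of 7 members (Ccnd2, -0.42, adjusted p = 0.0498) was called for HFD+As against LFD, where 0 were without it and 0 to 1 with 1 array left out; no other member's call changed with the block. For Ccnd2 against LFD the adjusted p ran from 0.0474 to 0.446 over the alternatives.

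Of 624 member values under the alternatives, 49 changed sign, 36 of them in comparisons with a test and 13 in HFD+As against HFD or the interaction; 0 were of Ccnd1, and none was called with all arrays. For LFD+As against LFD these were Cdkn1b with the mean of its clusters (-0.045) and Cdkn2c with the span trend removed (0.0085). For HFD against LFD, Ccne1 (-0.041), Ccng2 (-0.0070) and Cdkn1b (-0.036) changed with the span trend removed, and Cdkn1b with quantile normalization (-0.035). For HFD+As against LFD, Ccne1 changed with quantile normalization (0.0041) and with the span trend removed (0.0069), and Cdk4 with the span trend removed (-0.0080). With 1 array left out, LFD+As against LFD ran from -0.032 to 0.12 for Ccnd3, -0.37 to 0.23 for Ccng2, -0.021 to 0.12 for Cdk4, -0.15 to 0.18 for Cdkn1b and -0.15 to 0.14 for Cdkn2c. HFD against LFD ran from -0.058 to 0.071 for Ccne1, -0.18 to 0.26 for Ccng2, -0.16 to 0.17 for Cdkn1b and -0.056 to 0.15 for Cdkn2c. HFD+As against LFD ran from -0.042 to 0.15 for Ccnd3, -0.077 to 0.024 for Ccne1, -0.060 to 0.11 for Cdk4, -0.28 to 0.054 for Cdkn1b and -0.19 to 0.019 for Cdkn2c. HFD+As against LFD+As ran from -0.086 to 0.11 for Ccnd3, -0.11 to 0.061 for Cdk4 and -0.23 to 0.066 for Cdkn2c.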
